A study of Mus musculus with 12 samples.

Results

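The genes studied here, 10 that mark the lining of brain blood vessels, were followed through all 12 libraries: Kdr, Flt1, Tek, Cldn5, Pecam1, Cdh5, Slco1a4, Abcb1a, Slc2a1 and Mfsd2a. They were chosen by symbol from known functions in the blood-brain barrier, and each symbol matched 1 row, so they are 10 of the 46078 Ensembl genes in the table. Of these, 3 (Kdr, Flt1 and Tek) are receptors of vessel growth, and 7 build the barrier or carry molecules across it. All 10 passed the filter on low values (at least 10 normalized counts on average), as did 17496 genes in total, which were all tested.

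Hippocampal RNA of the strain C57BL/6 was sequenced at postnatal day 25 (P25). Each sex was represented by 3 wild-type libraries and 3 libraries of heterozygotes for the mutation Chd8 Asn2373LysfsX2, which gave 4 groups in all. The allele is a frameshift in a gene for a chromatin remodelling enzyme, and the heterozygous animals are called mutants here. The labels name no batch. Nothing in them states whether replicates are different animals, so p-values measure only how far these libraries spread, which may be technical.

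Endothelial cells of the brain are joined by tight junctions and take up few molecules in vesicles, so nutrients enter through dedicated carriers and many drugs are pumped back to the blood. Vascular endothelial growth factor acts on these cells through Kdr, while Flt1 binds the same family of ligands and limits the amount that reaches Kdr. Tek, also called Tie2, is the receptor of the angiopoietins and keeps vessels quiescent. The barrier is set up during development under Wnt signals from neural cells and is maintained with the help of pericytes, the cells that wrap the capillary.

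The sequences just upstream of 4 genes are shown to set the 3 receptors beside the main tight junction gene, because a short core recognised by ETS proteins, a family with several endothelial members, is a usual element of endothelial promoters. Each is the stretch of 250 bases before the transcription start in RefSeq on GRCm38.p6, on the strand of the gene, and capitals mark matches to AGGAAG or CCGGAA on either strand.
Kdr, chr5:75978456-75978705, minus strand: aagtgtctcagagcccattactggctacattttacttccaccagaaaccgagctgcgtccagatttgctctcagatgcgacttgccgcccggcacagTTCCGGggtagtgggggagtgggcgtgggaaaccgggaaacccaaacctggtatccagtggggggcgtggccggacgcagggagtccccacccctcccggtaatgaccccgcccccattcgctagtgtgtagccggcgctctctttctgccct
Flt1, chr5:147726012-147726261, minus strand: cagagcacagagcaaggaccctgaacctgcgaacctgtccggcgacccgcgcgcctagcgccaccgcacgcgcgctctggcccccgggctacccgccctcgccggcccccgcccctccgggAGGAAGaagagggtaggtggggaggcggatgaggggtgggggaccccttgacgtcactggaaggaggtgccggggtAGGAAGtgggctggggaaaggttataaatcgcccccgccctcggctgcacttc
Tek, chr4:94739039-94739288, plus strand: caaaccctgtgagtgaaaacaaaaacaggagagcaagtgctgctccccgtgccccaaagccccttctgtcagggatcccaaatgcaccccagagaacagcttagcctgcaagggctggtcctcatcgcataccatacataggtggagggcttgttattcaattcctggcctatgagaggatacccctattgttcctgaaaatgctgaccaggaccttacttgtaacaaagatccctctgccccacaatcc
Cldn5, chr16:18776597-18776846, plus strand: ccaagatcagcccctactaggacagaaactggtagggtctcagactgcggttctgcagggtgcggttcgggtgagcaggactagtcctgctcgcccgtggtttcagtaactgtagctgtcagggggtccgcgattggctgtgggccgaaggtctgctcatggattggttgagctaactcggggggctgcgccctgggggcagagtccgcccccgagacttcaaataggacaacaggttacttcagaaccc

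The Kdr window held 1 CCGGAA, on the opposite strand, 153 to 148 bases before the start. In the Flt1 window AGGAAG occurred at 129 to 124 and at 53 to 48 bases before the start. Neither letter string was found in the Tek or the Cldn5 window. Other forms of the ETS core were not searched and are not marked, such as AGGAA on the opposite strand of the Tek window. RefSeq windows were matched for 8 of the 10 genes. That of Abcb1a, chr5:8566841-8567090, lies far upstream of the GENCODE start of the gene at 8660077, so it precedes a different start. AGGAAG was present in 3 of these 8 (Flt1, Slco1a4 and Abcb1a) and in 29.5% of 32851 mouse promoter windows of the same length, and CCGGAA in 1 of 8 (Kdr) and 12%. The GC box GGGCGG was present in 4 of 8 (Kdr, Flt1, Cldn5 and Slc2a1) and in 32.7%, TATAAA in 1 of 8 (Flt1) and 12.4%, and ATCAAAG, read by the Wnt effectors TCF and LEF, in 0 of 8 and 3.21%. All were searched on both strands, AGGAAG and CCGGAA share no full match, and a match is only a run of letters in this window.

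The libraries differed in ways that touch the values below. Recovered reads numbered 26912998 to 33327314 per wild-type library and 23721482 to 24654408 per mutant library, so depth and genotype cannot be told apart, and each of the 10 genes had between 376 and 2417 reads in every library. Chd8 stood at 2383 to 2513 normalized counts in the 6 mutant and 2751 to 2994 in the 6 wild-type libraries (log2 difference -0.22, limma adjusted p = 0.0289). The neuronal genes Snap25 (42977 to 48213) and Slc17a7 (32830.0 to 37362) were abundant in all 12, as the tissue label asks. Choroid plexus markers, which lie outside the hippocampus, were low in wild-type female 1, mutant male 2 and mutant male 3 (mean log2 level 5.30 to 5.84, against 9.54 to 11.29 in the other 9). Levels are given in normalized counts, reads divided by 1 size factor per library. Differences are log2 fold changes of value plus 1, mutant minus wild type, with the standard error of limma, and a gene was called at an adjusted p under 0.05.

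Per kilobase of exon, which sets levels of different genes roughly side by side, the barrier and transport genes Cldn5 and Slc2a1 led and the receptors lay low. The length was that of all annotated exons of a gene together, such as 1416 bases for Cldn5 and 13504 for Flt1. The ranking thus depends in part on the annotation. Means over the 12 libraries (± SD, n = 12) were 657 ± 89.7 normalized counts per kilobase for Cldn5, 557 ± 32.4 for Slc2a1, 289.8 ± 20.6 for Slco1a4, 270.4 ± 12.7 for Mfsd2a and 174 ± 25.6 for Abcb1a. The remaining 5 were Flt1 at 126 ± 10.4, Tek at 117 ± 12.3, Cdh5 at 116 ± 25, Pecam1 at 92.2 ± 14.3 and Kdr at 87.4 ± 7.5. In this order the ranges of neighbours overlapped, except between Slc2a1 (lowest 511) and Slco1a4 (highest 332) and between Mfsd2a (lowest 244) and Abcb1a (highest 234). Cldn5 and Kdr, the ends of this order, differed by more than the spread of either.

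No gene of the 10 was called in any comparison, and the clearest pattern among them was in Kdr, which was lower in mutant males and higher in mutant females. Averaged over both sexes, all 10 estimates lay above 0, from 0.01 for Mfsd2a to 0.27 for Cdh5, with a median of 0.05, while 49.9% of all tested genes lay above 0 with a median of -7.3e-05. In males 6 of 10 lay above 0 (50.6% of all genes), with a median of 0.04 (all genes 0.0017). In females 10 of 10 did (50.5% of all genes), with a median of 0.14 (all genes 0.0011). The 10 genes share the libraries and the cell type, so they are not 10 separate observations of genotype.

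**Figure D1:**
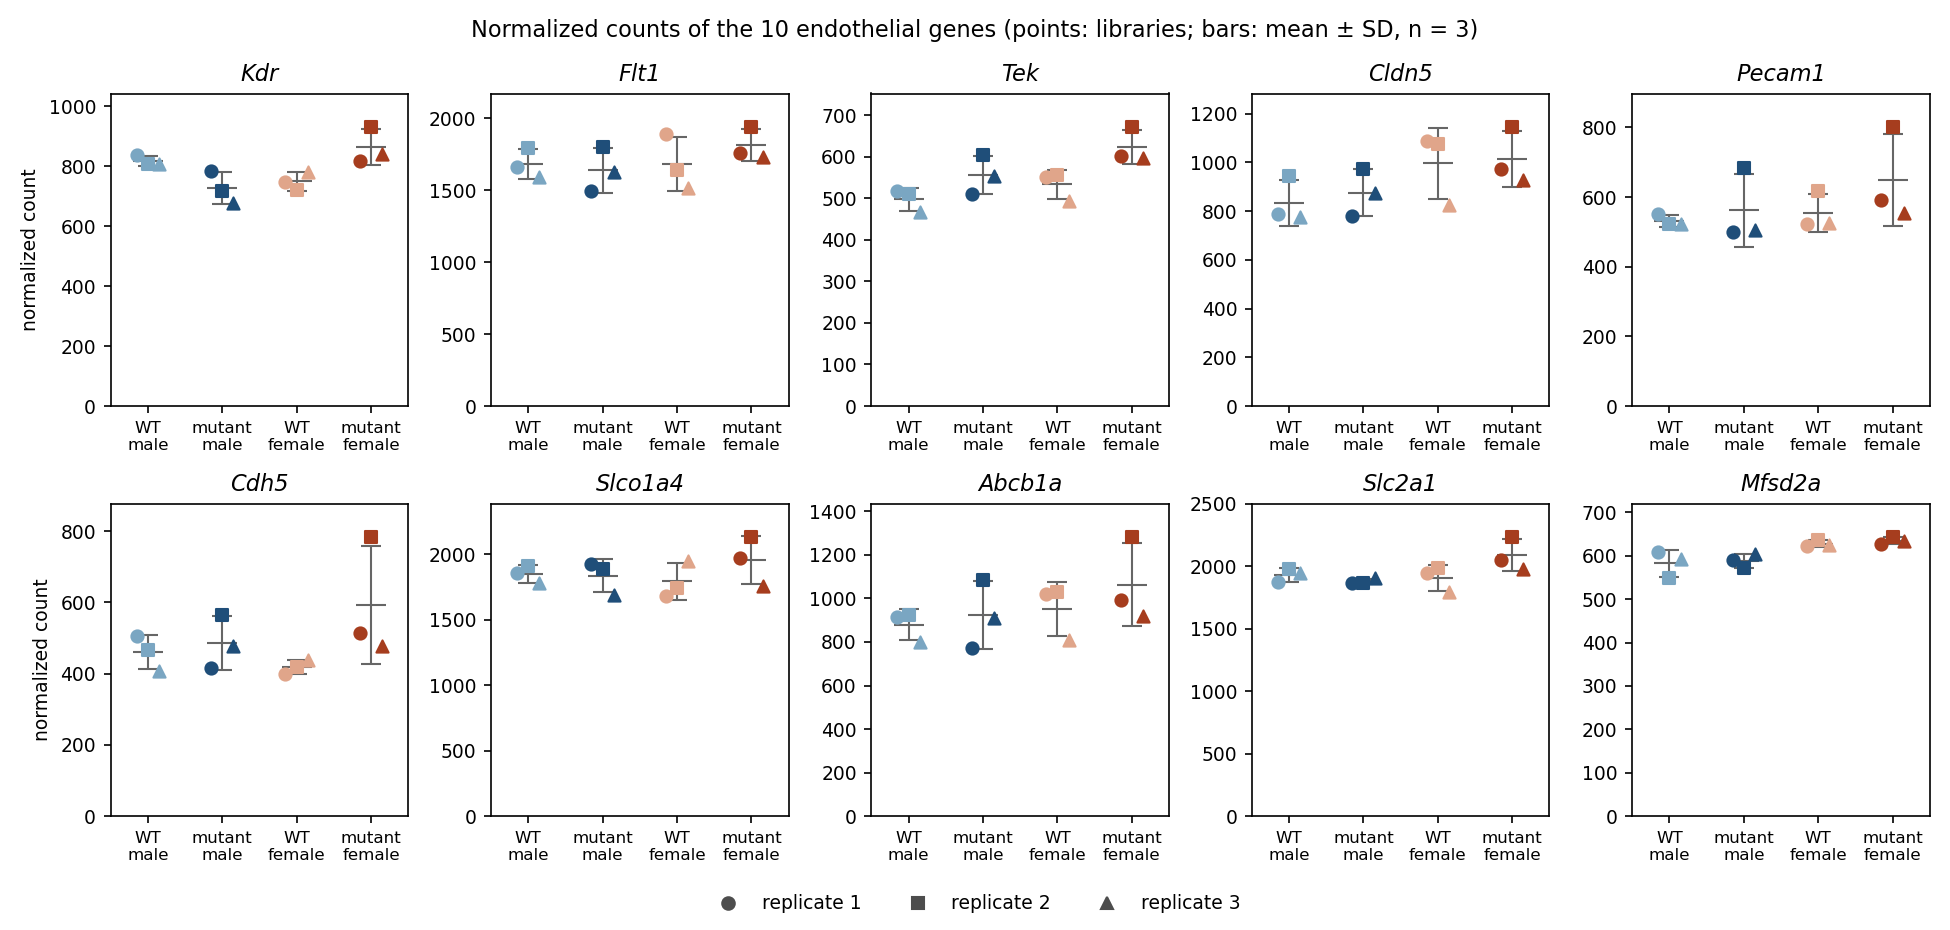
Normalized counts of each gene in the 12 libraries, with 1 panel per gene and its own vertical scale from 0; points are libraries, shapes are replicate numbers and bars are the mean ± SD (n = 3). Mutant female 2 is the highest library for every gene, and the Kdr panel shows mutant males below and mutant females above the wild type of their sex.

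Kdr (ENSMUSG00000062960, chr5:75932827-75978458, minus strand) encodes VEGFR2, the main signalling receptor for vascular endothelial growth factor. Its normalized counts were 835, 808 and 807 in male wild types, and 784, 718 and 678 in male mutants. In females they were 747, 719 and 781 in the wild type, and 818, 930.2 and 842 in the mutants. All 3 mutant males lay below all 3 wild-type males, a pattern found in 7.68% of tested genes, and all 3 mutant females lay above all 3 wild-type females, found in 5.14%. Both together, in these directions, occurred in 62 genes, 0.354% of those tested, and either pair of opposite directions in 0.674%.

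Group means of Kdr were 817 ± 16.1 in male wild types and 727 ± 53.3 in male mutants, 749 ± 31.0 in female wild types and 863 ± 59.1 in female mutants (SD, n = 3). The log2 difference was -0.17 ± 0.06 in males (limma adjusted p = 0.443) and 0.20 ± 0.06 in females (limma adjusted p = 0.584). The female minus the male difference was 0.37 ± 0.09, with a 95% interval of 0.18 to 0.57 (limma adjusted p = 0.619), where 7.85% of all genes had an unadjusted p under 0.05 and 0 were called. Averaged over the sexes, Kdr stood at 0.02 ± 0.05 (limma adjusted p = 0.943). The difference between the sexes thus passed no threshold once all 17496 genes were counted.

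Choroid plexus markers had the directions of Kdr, with 14 of 14 below 0 in males (median -3.37) and 14 of 14 above 0 in females (median 1.70). The mutant males with low choroid plexus markers had Kdr at 718 and 678, and the mutant male with high markers, at 784, was also below the lowest wild-type male. Wild-type female 1, the third library low in these markers, had 747, between the other two wild-type females. With the 3 libraries left out, an alternative chosen after seeing the data, Kdr differed by -0.06 in males, with 1 mutant male left, by 0.20 in females, and by 0.26 between the sexes (limma adjusted p = 0.913, 0.489 and 0.756).

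Flt1 (ENSMUSG00000029648, chr5:147561604-147726011, minus strand) encodes VEGFR1, which binds VEGF tightly and also exists as a soluble trap. Its normalized counts were 1662, 1796 and 1592 in male wild types, and 1493, 1803 and 1624 in male mutants. Wild-type females had 1889, 1641 and 1518, and mutant females 1763, 1941 and 1734. The groups overlapped in both sexes, with estimates of -0.04 ± 0.09 in males and 0.11 ± 0.09 in females (limma adjusted p = 0.916 and 0.858). The difference between the sexes was 0.15 ± 0.12 (limma adjusted p = 0.811), so the interval of -0.11 to 0.42 includes both 0 and the value of Kdr. With the mean choroid plexus level as a covariate, Flt1 stood at -0.21 in males, 0.19 in females and 0.40 between the sexes. In that fit Kdr stood at -0.11, 0.18 and 0.29, and Tek at 0.05, 0.28 and 0.23. Without the 3 libraries low in choroid plexus markers Flt1 stood at -0.17, 0.20 and 0.37, with 1 mutant male left. The opposite signs were thus not particular to Kdr in these fits.

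Tek (ENSMUSG00000006386, chr4:94739289-94874976, plus strand) had the smallest unadjusted p of the 10 genes in the averaged comparison. Normalized counts were 517, 510.3 and 466 in male wild types, and 511, 604 and 554 in male mutants. Wild-type females had 551, 556 and 494, and mutant females 603, 672 and 596. All mutant females lay above all wild-type females, whereas in males the lowest mutant fell between wild-type libraries. Group means were 498 ± 27.5, 556 ± 46.5, 533 ± 34.5 and 624 ± 42.0 in the same order (SD, n = 3).

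Averaged over the sexes, Tek was 14.2% higher in mutants, with a 95% interval of 5.01 to 24.1% (log2 0.19 ± 0.06, limma adjusted p = 0.360). In males the log2 difference was 0.16 ± 0.08 (limma adjusted p = 0.515) and in females 0.22 ± 0.08 (limma adjusted p = 0.590), and the sexes differed by 0.07 ± 0.11. The smallest adjusted p of any of the 10 genes under another tool or setting for all 12 libraries was also that of Tek, 0.196 with DESeq2. Of all tested genes, 8.87% had an unadjusted p under 0.05 in this comparison, and 0.00572%, which is Chd8 alone, was called.

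**Figure D2:**
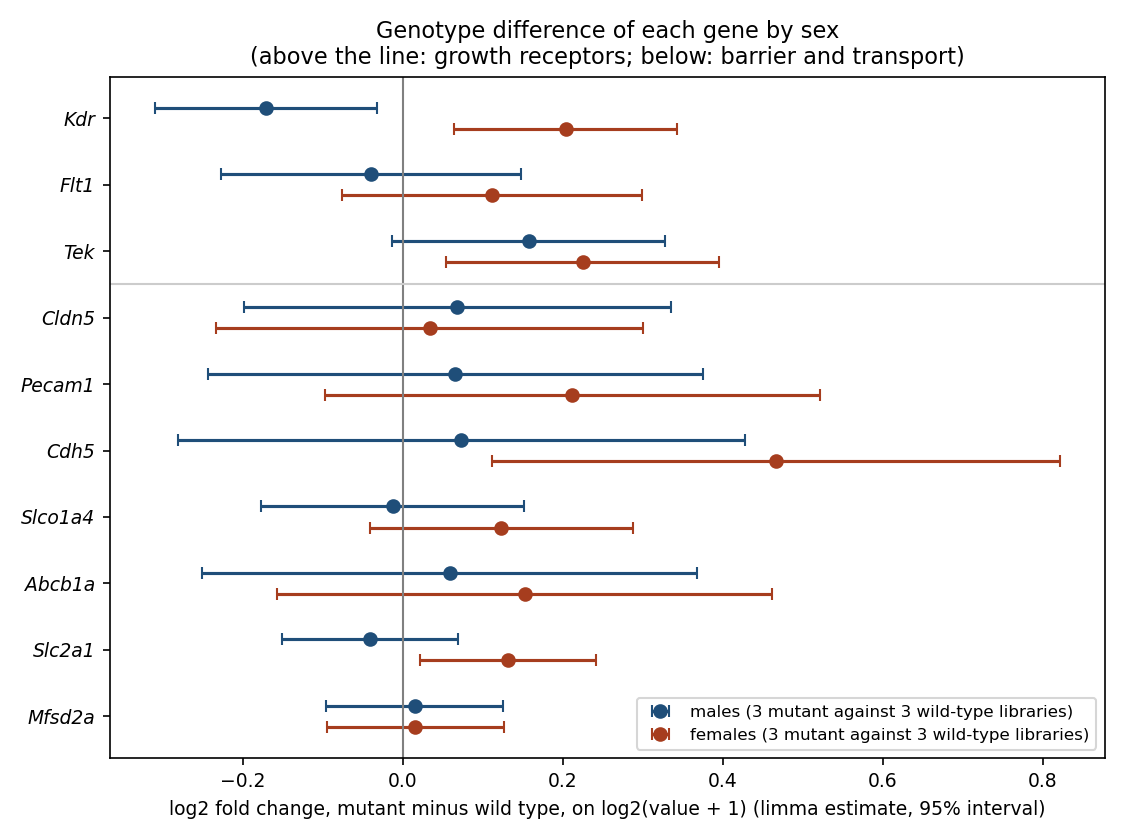
Log2 fold change of each gene, mutant minus wild type, in males (blue) and females (red), as limma estimates with 95% intervals; the 3 receptors are above the grey line and the 7 barrier and transport genes below it. The Kdr intervals lie on opposite sides of 0, at -0.17 and 0.20, and the Cdh5 estimate in females, 0.47, is the highest.

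The widest spread between replicates of any of the 10 genes was that of the junction gene Cdh5 in mutant females, 28.1% of the group mean. Cldn5 (ENSMUSG00000041378, chr16:18776847-18778262, plus strand) encodes claudin-5, the main sealing protein of the tight junction. It had 786, 943 and 774 normalized counts in male wild types, 778, 971 and 875 in male mutants, 1086, 1075 and 826 in female wild types, and 973, 1145 and 928 in female mutants. Genotypes overlapped in both sexes, and the averaged difference was 0.05 ± 0.09 (limma adjusted p = 0.895). The spread between replicates of Cldn5 was 11 to 14.8% of the group mean (coefficient of variation).

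Pecam1 (ENSMUSG00000020717, chr11:106654217-106750628, minus strand) encodes CD31, an adhesion protein at endothelial contacts. Its values were 551, 522 and 521 in male wild types and 498, 683 and 504 in male mutants, 522, 617 and 524 in female wild types and 592, 801 and 553 in female mutants. In each mutant group replicate 2 stood high, and the other replicates lay below the wild-type range in males and within it in females. The averaged difference was 0.14 ± 0.10 (limma adjusted p = 0.724), and the coefficient of variation was 18.7 and 20.5% in the male and female mutants, against 3.17 and 9.73% in the wild types of those sexes.

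Cdh5 (ENSMUSG00000031871, chr8:104101625-104144511, plus strand) encodes VE-cadherin, the adherens junction protein of endothelium. It gave 504, 468 and 408 normalized counts in male wild types, 416, 564 and 478 in male mutants, 399, 417 and 437 in female wild types, and 515, 783 and 479 in female mutants. All mutant females were above all wild-type females, by 38.2% on the group estimate (95% interval 8.06 to 76.7%), a log2 difference of 0.47 ± 0.16 (limma adjusted p = 0.590). In males the difference was 0.07 ± 0.16, and the sexes differed by 0.39 ± 0.23 (limma adjusted p = 0.727). Without mutant female 2 the female difference of Cdh5 was 0.25 and the averaged one 0.16 in place of 0.27 (limma adjusted p = 0.858 and 0.638). The antisense gene Gm29682 overlaps Cdh5, and their reads could not be told apart, because the library kit, TruSeq RNA Sample Prep v2, does not mark strand.

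The other 4 genes encode carriers and pumps. Slco1a4 (ENSMUSG00000030237, chr6:141805440-141856199, minus strand) encodes an organic anion transporter of the barrier. It had 1855, 1913 and 1782 normalized counts in male wild types, 1929, 1888 and 1692 in male mutants, 1680.4, 1747 and 1953 in female wild types, and 1973, 2131 and 1762 in female mutants. The genotypes overlapped in both sexes (averaged difference 0.06 ± 0.05, limma adjusted p = 0.805). Its close relatives were far less abundant: Slco1a6 had 10.2 to 26.9, Slco1a1 had 0 to 1.09, and Slco1a5 had 33.2 to 85.5 in 9 libraries and 1.82 to 13 in the 3 low in choroid plexus markers. Reads that fit several relatives may still have been split or dropped in counting.

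Abcb1a (ENSMUSG00000040584, chr5:8660077-8748575, plus strand) encodes P-glycoprotein, the pump that returns many drugs to the blood. Its values were 917, 924 and 799 in male wild types and 774, 1084 and 912 in male mutants, 1019, 1029.5 and 811 in female wild types and 991, 1281 and 919.8 in female mutants. In males the mutant range enclosed the wild-type range and in females the ranges overlapped, with an averaged difference of 0.11 ± 0.10 (limma adjusted p = 0.802). The neighbouring copy Abcb1b, with 117 to 178 normalized counts, stood at 0.19 ± 0.09 (limma adjusted p = 0.586), and reads common to both copies make the split between them uncertain. The predicted genes Gm42684 and Gm42686 overlap Abcb1a.

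Slc2a1 (ENSMUSG00000028645, chr4:119108711-119137983, plus strand) encodes GLUT1, the glucose carrier of the barrier, which astrocytes also make. Normalized counts were 1873, 1979.6 and 1950.5 in male wild types and 1867, 1868 and 1905 in male mutants, 1945, 1989 and 1792 in female wild types and 2054, 2234 and 1983 in female mutants. The lowest mutant female was just under the highest wild-type female, and mutant females were 9.50% higher on the group estimate (95% interval 1.46 to 18.2%), a log2 difference of 0.13 ± 0.05 (limma adjusted p = 0.627). This was 0.08 without mutant female 2 and 0.09 without wild-type female 3 (limma adjusted p = 0.889 and 0.582). In males it was -0.04 ± 0.05, and the sexes differed by 0.17 ± 0.07 (limma adjusted p = 0.619). Slc2a1 overlaps the antisense genes Gm12867 and Gm12868 and the microRNA gene Mir1957a.

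Mfsd2a (ENSMUSG00000028655, chr4:122946850-122961188, minus strand) encodes the carrier that brings the omega-3 fatty acid DHA into the brain and holds back vesicle transport. It had 608, 548 and 592 normalized counts in male wild types, 590.2, 572 and 603 in male mutants, 623, 636 and 624 in female wild types, and 626, 643 and 635 in female mutants. Genotype differences were 0.01 ± 0.05 in males and 0.02 ± 0.05 in females, with 95% intervals of -6.43 to 9.04% and -6.37 to 9.11%. These intervals leave out changes of the size estimated for Tek in either sex, although a difference of several percent in either direction remains possible. Mfsd2a was the least variable of the 10, with a highest library 1.17 times its lowest, against 1.96 times for Cdh5.

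In the averaged comparison 2 of the 10 genes (Tek and Cdh5) had an unadjusted p under 0.05, against 8.87% of all tested genes. In males it was 1 of 10 (Kdr, lower), against 10.3%, and in females 4 of 10 (Kdr, Tek, Cdh5 and Slc2a1, all higher), against 6.9% in either direction and 3.82% for higher. Adjusted over all genes, 0 of 10 passed in males or females, where 0 of all genes (0%) did. In females 3 genes did not overlap between genotypes (Kdr, Tek and Cdh5, all higher in mutants; 5.14% of all genes), in males 1 did not (Kdr, lower; 7.68%), and 0 of 10 separated the 6 mutant from the 6 wild-type libraries with mutants above (0.303% of all genes).

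Every one of the 10 genes had its highest value of the 12 libraries in mutant female 2, where 10.7% of all tested genes peaked. In that library the mean log2 level was 10.06 for the receptors, 9.81 for the junction genes and 10.46 for the transport genes, and the next highest libraries stood at 9.90, 9.49 and 10.30. Without mutant female 2 the females had 9 of 10 genes above 0 with a median of 0.06, and 1 of 10 with an unadjusted p under 0.05, in place of 10, 0.14 and 4. In that fit 1038 of 17482 tested genes had an unadjusted p under 0.05. Without mutant male 2, which led its group for 6 of the 10 genes, 2 of 10 were above 0 in males, with a median of -0.04.

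Receptors were also compared with barrier genes within each library. The receptor mean minus the mean of the 7 barrier and transport genes, on the log2 scale, was 0.02 ± 0.003 in male wild types and -0.03 ± 0.05 in male mutants, -0.04 ± 0.07 in female wild types and -0.02 ± 0.10 in female mutants (SD, n = 3). By library the values were 0.02, 0.02 and 0.02, then 0.03, -0.08 and -0.03, then 0.04, -0.11 and -0.03, and in mutant females -0.01, -0.12 and 0.08. These values overlapped between genotypes in both sexes. With medians in place of means the groups stood at -0.01, -0.26, -0.34 and -0.23. The median of the 3 receptors was Kdr in every library, so the medians set that gene alone against the barrier genes. By medians mutants lay lower in males and higher in females, the directions of Kdr. Both the level of this difference and its gap between genotypes thus depend on how the genes are summarised. Medians of the genotype difference were 0.04 for the 3 receptors and 0.05 for the 4 transport genes in the averaged comparison, with 0.14 for the 3 junction genes. In males these were -0.04, 0.001 and 0.07, and in females 0.20, 0.13 and 0.21, in the same order.

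**Figure D3:**
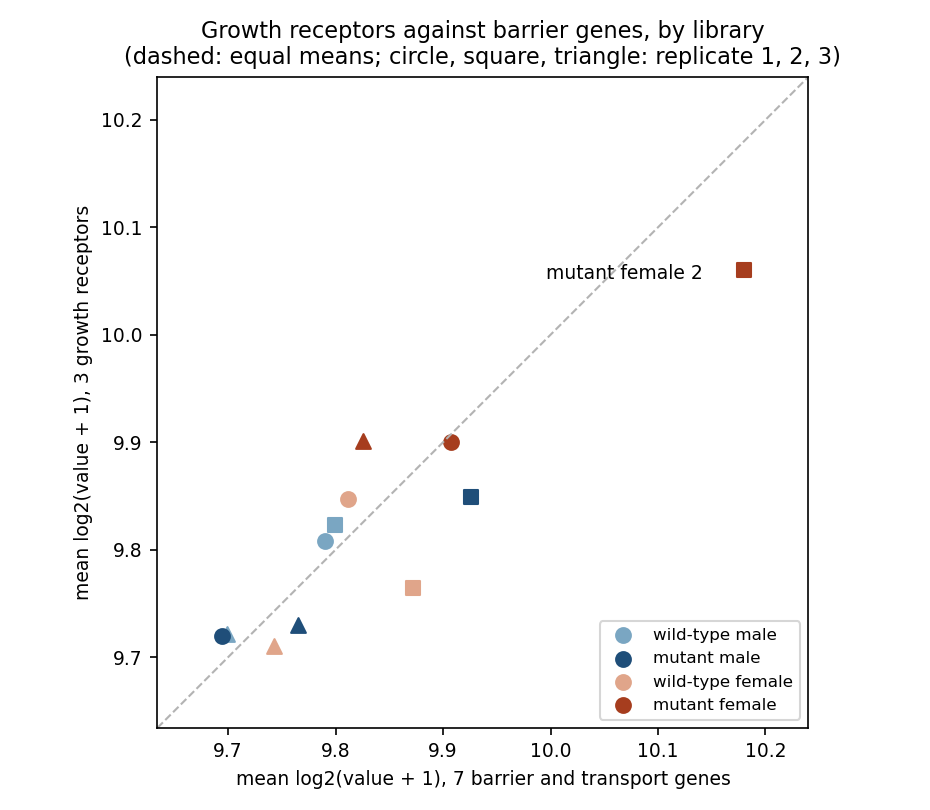
Mean log2(value + 1) of the 3 receptors (vertical) against that of the 7 barrier and transport genes (horizontal), 1 point per library; the dashed line marks equal means, and colours and shapes give group and replicate number. Mutant female 2 lies at 10.18 and 10.06, apart from the other 11 libraries, and the groups are not separated across the line.

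The 2 means went together over the 12 libraries (Pearson r = 0.89, Spearman rho = 0.87), and r was 0.74 without mutant female 2 and 0.75 without the 2 libraries farthest from the median. These are descriptions over libraries that share a genome, a tissue and a size factor per column. Single genes differed in how closely they followed the other 9. Abcb1a (r = 0.90), Pecam1 (0.89) and Tek (0.86) followed them most, and still did without mutant female 2 (0.84, 0.71 and 0.81). Kdr (0.41), Slco1a4 (0.47) and Mfsd2a (0.32) followed least, and without that library their r was -0.17, -0.06 and 0.04. Kdr was thus the receptor least like the rest, and Tek the one most like them.

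The genes closest in pattern to the receptor mean, among 14043 genes averaging 50 or more, were Pdgfrb (r = 0.94), Epas1 (0.93), Gjb6 (0.93), Jak3 (0.92) and Adgrf5 (0.91). Spearman's rho ran from 0.85 to 0.94 for these 5, and r without mutant female 2 from 0.78 to 0.94. Closest to the barrier mean were Anxa3 (0.96), Jak3 (0.95), Htra3 (0.94), Arhgap29 (0.94) and Slc16a13 (0.94), with rho from 0.78 to 0.94 and r without that library from 0.82 to 0.91. Pdgfrb marks pericytes, Epas1 is a hypoxia-inducible factor abundant in brain endothelium, and Gjb6 is a gap junction gene of astrocytes.

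Sex was compared within each genotype as male minus female. In the wild type, Kdr was higher in all 3 males than in all 3 females (5.83% of all genes behaved so; log2 0.13 ± 0.06, limma adjusted p = 0.774). Mfsd2a was lower in all 3 males (6.45% of all genes; -0.11 ± 0.05, limma adjusted p = 0.774). In mutants, Kdr, Slc2a1 and Mfsd2a were lower in all 3 males than in all 3 females (5.85% of all genes), with log2 differences of -0.25 ± 0.06 (limma adjusted p = 0.549), -0.15 ± 0.05 (0.667) and -0.11 ± 0.05 (0.704). Of these 3, Kdr and Slc2a1 (0.02 ± 0.05 in the wild type) had opposite signs in the 2 genotypes, while Mfsd2a had the same value in both. Of all genes, 0.0457% were called between sexes in the wild type and 0.0629% in mutants, and 0 of the 10.

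The other genes of these pathways were taken from 7 lists of known function, without the 10 genes themselves, and 0 of them were called in any genotype comparison. Of 26 ligands, receptors and effectors of VEGF, angiopoietin and Notch signalling, 20 lay above 0 in the average (median 0.13), with 5 higher and 0 lower at an unadjusted p under 0.05, where 4.4% of all genes were higher and 4.47% lower. In males 18 of 26 (median 0.06) and in females 22 of 26 (median 0.14) lay above 0. Tie1, the partner receptor of Tek, had 392 to 469 normalized counts in wild-type and 455 to 532 in mutant males, and 393 to 439.8 in wild-type and 511 to 554 in mutant females. It was 0.25 ± 0.06 higher in mutants on the log2 scale (limma adjusted p = 0.311), and its mutant females lay above the wild-type ones without overlap (5.14% of all genes). Eng, a co-receptor for TGF-beta family ligands, stood at 0.22 ± 0.06, Notch4 at 0.24 ± 0.08 and Notch1 at 0.13 ± 0.05. Esm1, a marker of sprouting tip cells, was at 8.69 to 51.2 normalized counts, with -1.16 ± 0.43 in males and 0.61 ± 0.43 in females (difference 1.77 ± 0.61, limma adjusted p = 0.619).

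Junction and adhesion genes had the lowest median of the 7 lists in males. Of 19 genes, 8 lay above 0 in the average (median -0.04, 1 higher and 4 lower at an unadjusted p under 0.05), 8 in males (median -0.16, 0 higher and 6 lower, where 6.23% of all genes were lower) and 14 in females (median 0.06, 2 higher and 1 lower). Jam3 (-0.17 ± 0.05) and Mcam (-0.22 ± 0.08) were among those lower in the average, and Clec14a (0.34 ± 0.13) was the higher one. Cgn, which encodes the epithelial junction protein cingulin, had 243 to 291 normalized counts in male wild types and 94.2 to 197 in male mutants (-0.92 ± 0.27, limma adjusted p = 0.407), and 132 to 236 in wild-type and 144 to 226 in mutant females (0.01 ± 0.27). Ctnna1 stood at -0.29 ± 0.10 in males and 0.15 ± 0.10 in females. Cgn and Ctnna1 were both lowest among the males in mutant male 2, a library low in choroid plexus markers.

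Of 24 other transporters, 15 lay above 0 in the average (median 0.05, 2 higher and 1 lower at an unadjusted p under 0.05), 13 in males (median 0.03) and 20 in females (median 0.13, 5 higher and 0 lower). In females 3.82% of all genes were higher at that p. The amino acid carrier Slc38a5 stood at 0.27 ± 0.09, the taurine carrier Slc6a6 at 0.09 ± 0.03, and Spns2, which exports sphingosine-1-phosphate, at -0.08 ± 0.03. Slc22a8, an organic anion carrier, was at 642 to 699 normalized counts in wild-type and 724 to 1279.7 in mutant females (0.53 ± 0.16, limma adjusted p = 0.584), highest in mutant female 2. The efflux pump Abcc4 was lower in mutant males (336 to 439 against 458 to 501, -0.37 ± 0.10) and stood at 0.19 ± 0.10 in females, a difference between sexes of 0.56 ± 0.15 (limma adjusted p = 0.619) in the same direction as that of Kdr.

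Among 20 genes of the Wnt pathway at the barrier, 14 lay above 0 in the average (median 0.02, 3 higher and 0 lower at an unadjusted p under 0.05), 14 in males (median 0.03) and 14 in females (median 0.10, 6 higher, where 3.82% of all genes were). Apcdd1, a Wnt target and feedback inhibitor, had 1151 to 1268 normalized counts in wild-type and 1334 to 1442 in mutant males, and 1273 to 1408 in wild-type and 1390.4 to 1594 in mutant females (0.19 ± 0.04, limma adjusted p = 0.285). Sox17 stood at 0.43 ± 0.12 and the co-receptor Adgra2, also called Gpr124, at 0.29 ± 0.11. Lrp5, a Wnt co-receptor, had the same signs as Kdr, with -0.28 ± 0.11 in males and 0.28 ± 0.11 in females (difference 0.56 ± 0.15, limma adjusted p = 0.619).

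Endothelial transcription factors gave 21 of 24 above 0 in the average (median 0.18, 6 higher and 0 lower at an unadjusted p under 0.05), 15 in males (median 0.07) and 22 in females (median 0.20). Klf2, which responds to blood flow, had 195 to 198 normalized counts in wild-type and 244 to 272 in mutant males, and 131 to 189.7 in wild-type and 202 to 260.5 in mutant females. Its averaged difference was 0.44 ± 0.09 (limma adjusted p = 0.285), and all mutants lay above all wild-type libraries (0.303% of all genes behaved so). Klf2 is named here because it had the smallest p of its list. Foxf2 (0.27 ± 0.08) and Sox18 (0.33 ± 0.14) were also higher at an unadjusted p under 0.05.

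Vesicle and activation genes, which a tight barrier keeps low, gave 8 of 11 tested above 0 in the average (median 0.13, 4 higher and 0 lower), 5 in males (median -0.02) and 11 of 11 in females (median 0.23). Vwf, the clotting factor stored in endothelium, ran from 465 to 716 in wild-type and 544 to 1169 in mutant males and from 567 to 689 in wild-type and 735 to 1870.1 in mutant females (0.65 ± 0.23, limma adjusted p = 0.423). The caveola gene Cav1 stood at 0.25 ± 0.09, and the leukocyte adhesion gene Vcam1 at -0.29 ± 0.11 in males and 0.30 ± 0.11 in females. Of 14 tested markers of arteries, veins and capillaries 13 lay above 0 in the average (median 0.11), with the arterial gene Gkn3 at 0.53 ± 0.20 and the venous gene Ephb4 at 0.33 ± 0.13. The 13 include Stmn2 (0.01 ± 0.03), with a mean of 9003 normalized counts against 45.0 for Gkn3 and 237 for Ephb4. Its reads may come largely from cells other than vessels, which was not tested.

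**Figure D4:**
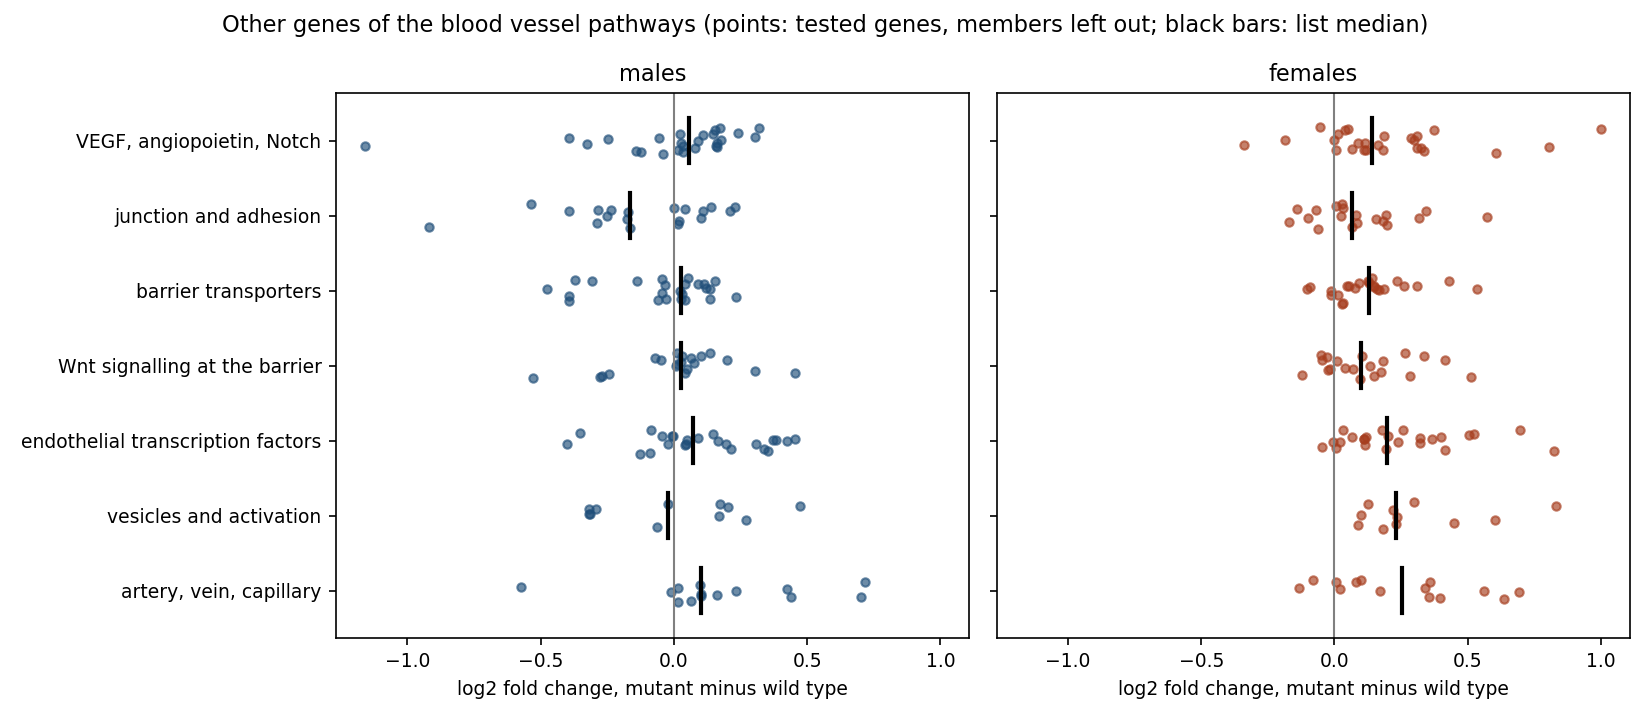
Log2 fold changes, mutant minus wild type, of the other tested genes of the 7 lists in males (left) and females (right); each point is 1 gene and black bars are list medians. Medians are at or below 0.10 in males and from 0.06 to 0.25 in females, and the junction list has the lowest median in males, -0.16.

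Lists of pericyte, smooth muscle and fibroblast markers, the last including meningeal cells, shared their highest library with the 10 genes. The mean log2 level of 12 pericyte markers was 8.19 to 8.33 in male wild types and 8.21 to 8.49 in male mutants, 8.18 to 8.32 in female wild types and 8.32 to 8.83 in female mutants. For 10 smooth muscle markers these ranges were 6.81 to 7.07, 6.88 to 8.26, 7.03 to 7.12 and 7.16 to 8.76, and for 13 fibroblast markers 8.66 to 9.59, 8.69 to 9.57, 8.40 to 8.80 and 8.94 to 10.50. In the fibroblast list wild-type male 1 (9.59) stood just above mutant male 2 (9.57). No marker in these lists was at 0 in all libraries. Mutant female 2 was the highest library in all 3 lists, with Myh11, the smooth muscle myosin, at 1409 against 249 to 1072 in the other 11, and mutant male 2 came second in smooth muscle. Mylk, the most abundant smooth muscle marker, stood at 1111.5 in mutant female 2 against 633 to 947. Of the 2 most abundant pericyte markers, Vtn stood at 3535 there against 1265 to 2465, and Rgs5 at 4389 against 3660.5 to 4301. Rgs5 was at 3726 in mutant male 2. Of the fibroblast pair, Igf2 was highest in mutant female 2 (10739), while Pdgfra was highest in mutant female 1 (2295, against 2189 in mutant female 2). In males 8 of 12 pericyte, 10 of 10 smooth muscle and 7 of 13 fibroblast markers lay above 0, with medians of 0.08, 0.63 and 0.07. In females 11, 10 and 13 did, with medians of 0.12, 0.80 and 1.32. Of them, 4, 1 and 11 had an unadjusted p under 0.05, where 3.82% of all genes were higher. Averaged over the sexes 11, 10 and 13 lay above 0, with medians of 0.12, 0.78 and 0.64. Of these, 7, 9 and 5 were higher at an unadjusted p under 0.05, where 4.4% of all genes were.

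Other cell markers did not all peak in the same library. The mean log2 level of 12 microglia and macrophage markers was 7.83 to 8.04 in male wild types and 7.93 to 8.23 in male mutants, 7.77 to 7.97 in female wild types and 8.03 to 8.38 in female mutants, with mutant female 2 the highest. All 5 tested red blood cell markers lay below 0 in males (median -0.18, 0 with an unadjusted p under 0.05) and above 0 in females (median 0.77, 4 with an unadjusted p under 0.05), the directions of Kdr, and the level in mutant female 2 (6.56) was below that in mutant female 1 (7.20). In females 3.82% of all genes were higher at an unadjusted p under 0.05. All 8 oligodendrocyte markers lay below 0 in both sexes, with a median of -0.23 in the average. Each of the 8 had an unadjusted p under 0.05 in the average, where 4.47% of all genes were lower.

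With the mean pericyte level as a covariate, 3 of the 10 endothelial genes lay above 0 in the average (median -0.01) and 6 in females (median 0.03). In females 0 of the 10 had an unadjusted p under 0.05 with this covariate, where 1280 of 17496 tested genes did. Under it, Tek stood at 0.09 and Cdh5 at -0.02 in the average, and the difference of Kdr between the sexes at 0.36 (limma adjusted p = 0.840, 0.986 and 0.269). With the choroid plexus level as a covariate, 9 of 10 lay above 0 in the average, 3 in males and 10 in females. In females 6 of the 10 had an unadjusted p under 0.05 in that fit, where 1436 of 17496 tested genes did. The part of these other cells in the levels of the 10 genes was not tested beyond these values. In bulk tissue fewer cells of a type and less RNA per cell cannot be told apart.

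**Figure D5:**
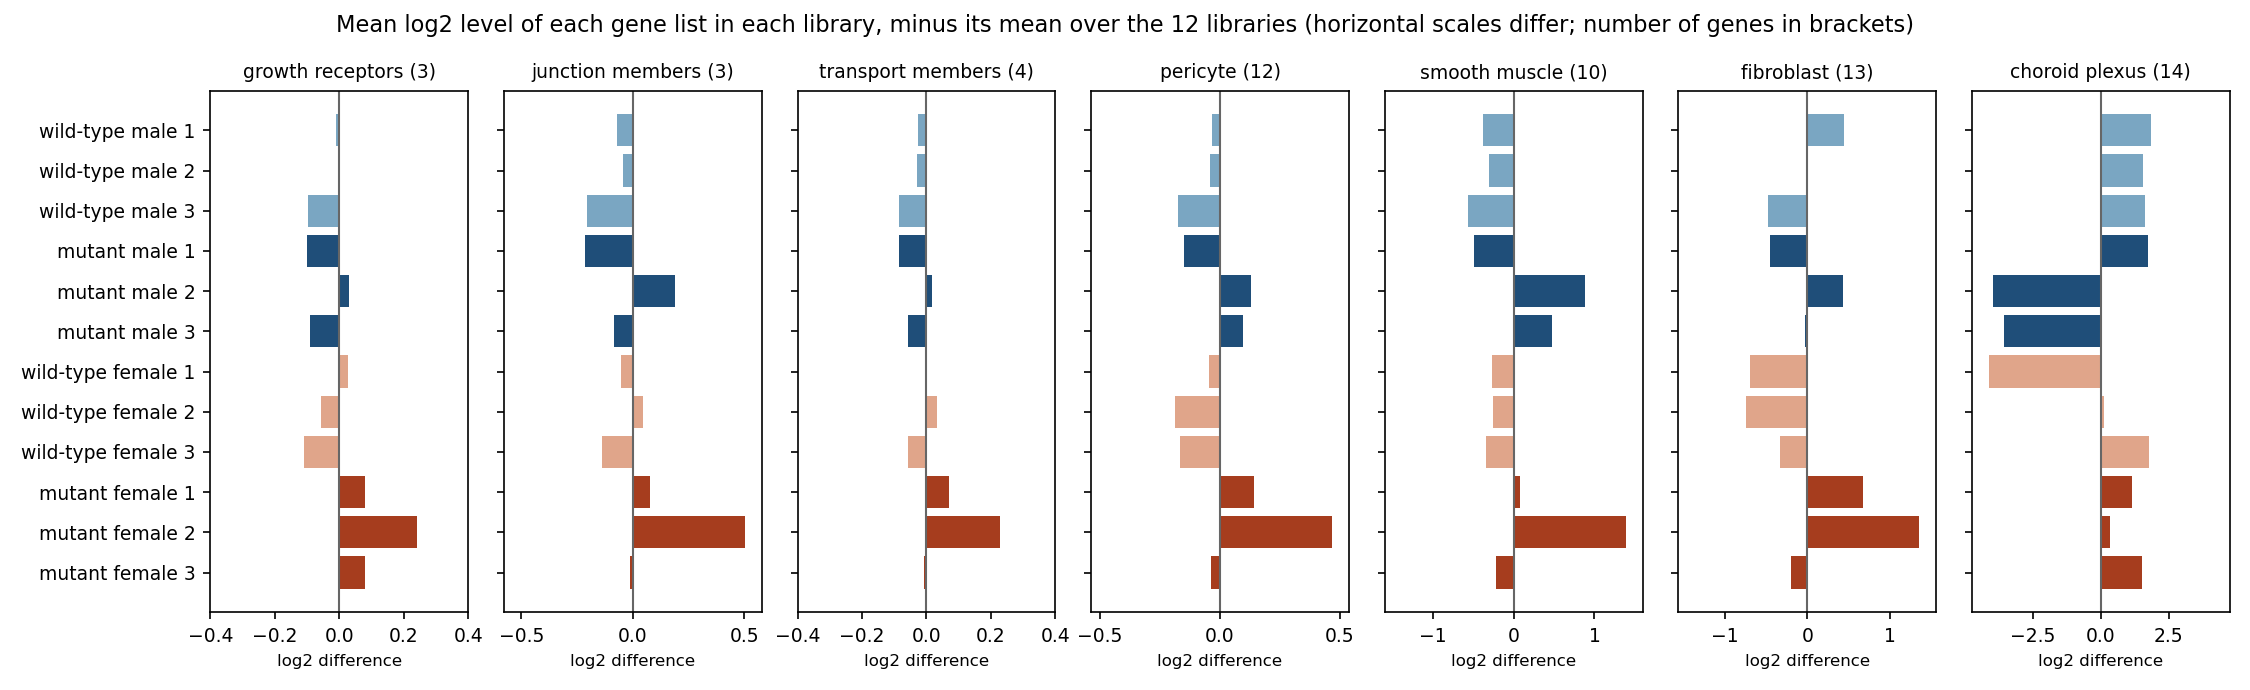
Mean log2 level of 7 gene lists in each library minus the list's mean over the 12 libraries, with a horizontal scale that differs between panels and the number of genes in brackets. Mutant female 2 is the highest bar for the endothelial, pericyte, smooth muscle and fibroblast lists, while the choroid plexus panel shows 3 libraries far below the others.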

How the data were processed

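RNA-seq libraries of mouse hippocampus, 12 in all, were grouped by their titles into 4 groups of 3. Per the submitters' processing notes, Trimmomatic 0.35, TopHat2 2.1.0, HTSeq, DESeq2 and the build GRCm38 were used, with no roles stated, and the release of the annotation was not given in the sources used here. For each Ensembl gene the deposited unit is a signal, the number of reads divided by the authors by 1 size factor per library. The values themselves show this, since 100% of them were whole multiples of 1 step per library (tolerance 0.001 reads, steps of 0.807 to 1.13). No columns of other samples were present (0). Symbols and 1-based positions were taken from GENCODE M21 for 45229 of 46078 IDs.

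A pseudocount of 1 was added before taking log2. Genes averaging 10 or more normalized counts were retained (17496). In R 4.3.3, limma 3.58.1 with the trend setting estimated 1 mean for each of the 4 groups from the 12 libraries together. P-values were adjusted over every tested gene after Benjamini and Hochberg, with a threshold of 0.05, and every p not credited to another tool is from limma. Fold changes on this scale understate changes of low genes. Scores of several genes were described without a test. On simulated data with known changes the fit was checked before use. Within groups, chi-square statistics of recovered reads per degree of freedom were 3.38 to 30.0, so no 2 libraries were duplicates.

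The alternatives were pseudocounts of 0.5 and 5, no filter or a minimum mean of 50, TMM and upper-quartile factors, edgeR 4.0.16, DESeq2 1.42.0 and limma-voom on the recovered reads, a replicate block, choroid plexus or pericyte level as a covariate, each library left out, and the 3 libraries with Ttr under 1000 left out together, the last chosen after seeing the data. The members and gene lists were chosen with earlier results of these data known. The rule for genes named beside the 10 was, for each pathway list, the 4 with the smallest p in the averaged comparison and the 1 with the smallest p in males, in females and between sexes, of which some are given by count only. For each other cell type it named the 2 most abundant markers, which are not given here for every cell type. It also added 5 genes most like each of the 2 means.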

Additional observations from a re-analysis of the deposited data

Results flagged for a closer look

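Kdr had genotype differences of opposite direction in the sexes, and the difference between them, 0.37 on the log2 scale (female minus male), is given here because all 3 mutant males lay below and all 3 mutant females above the wild type of their sex. The test of the difference gave an adjusted p of 0.619 with limma, and from 0.114 to 0.851 over the alternatives and left-out libraries. The estimate was above 0 in each of these, from 0.26 without the 3 libraries low in choroid plexus markers to 0.43 without 1 single library.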

How the results depend on the processing

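None of the 10 genes passed an adjusted p of 0.05 under any alternative run. Over these genes 37 of 585 values changed sign under the other alternatives and 34 of 540 when 1 library was left out. The averaged Cdh5 value, which turned with the pericyte covariate, was 0.27 ± 0.12 without it. DESeq2 gave no adjusted p in males for 7 of the 10 (Kdr, Tek, Cldn5, Pecam1, Cdh5, Abcb1a and Mfsd2a).

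With the pericyte level as a covariate the averaged log2 values that turned were Kdr -0.0028, Flt1 -0.084, Cldn5 -0.11, Pecam1 -0.055, Cdh5 -0.015, Abcb1a -0.13 and Slc2a1 -0.0055. In males they were Cldn5 -0.014, Pecam1 -0.033, Cdh5 -0.071 and Abcb1a -0.062, in females Flt1 -0.068, Cldn5 -0.21, Pecam1 -0.078 and Abcb1a -0.20, and between sexes Tek -0.036, Pecam1 -0.045 and Abcb1a -0.14. With the choroid plexus level they were Flt1 -0.0072 in the average, Cldn5 -0.13, Pecam1 -0.030, Cdh5 -0.042, Slco1a4 0.061 and Abcb1a -0.17 in males, and Cldn5 0.26 and Mfsd2a -0.010 between sexes. Without the 3 libraries low in choroid plexus markers they were Cldn5 -0.094, Pecam1 -0.091, Cdh5 -0.14, Slco1a4 0.061 and Abcb1a -0.18 in males, where 1 mutant library remained and was assumed to vary like the other groups, and Cldn5 0.20 and Mfsd2a -0.0096 between sexes. With upper-quartile factors Slco1a4 was 0.0077 in males and Mfsd2a -0.0078 in females and -0.043 between sexes, and with TMM factors Mfsd2a was -0.0026 between sexes. The cause was not tested.

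Leaving out 1 library at a time gave, for the genes whose sign turned, ranges of -0.012 to 0.040 (Kdr), -0.014 to 0.096 (Cldn5) and -0.0067 to 0.031 (Mfsd2a) in the average. In males they were -0.11 to 0.026 (Flt1), -0.010 to 0.16 (Cldn5), -0.083 to 0.14 (Pecam1), -0.040 to 0.18 (Cdh5), -0.049 to 0.045 (Slco1a4), -0.064 to 0.18 (Abcb1a) and -0.029 to 0.046 (Mfsd2a). In females Cldn5 ran from -0.096 to 0.10, and between sexes Cldn5 from -0.16 to 0.043, Pecam1 from -0.015 to 0.29, Abcb1a from -0.048 to 0.22 and Mfsd2a from -0.030 to 0.044.

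Genes called over the whole table numbered 1 in the average (Chd8), 0 in males, 0 in females, 0 between sexes in genotype effect, and 8 and 11 between sexes in wild type and mutants. At an unadjusted p under 0.05 limma gave 1807 in males, 1207 in females and 1373 for the difference. The average gave 0 without a filter, 0 with upper-quartile factors, 0 with the pericyte covariate, 75 with DESeq2 and 82 without the 3 libraries. DESeq2 called 35 in males, 11 in females, 3 for the difference, and 23 and 26 between sexes in wild type and mutants. Without the 3 libraries these were 12, 1, 2 and, in mutants, 19, and without a filter the wild-type count was 13. Leaving out 1 library gave 0 to 8 in the average, 0 to 1 in males, 0 to 1 in females, 0 to 1 for the difference, 8 to 13 in wild type and 9 to 14 in mutants. With medians in place of means, the receptors minus the barrier genes stood at -0.01 in male wild types, -0.26 in male mutants, -0.34 in female wild types and -0.23 in female mutants. The receptor median was Kdr in every library.

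The labels number the replicates 1 to 3 in each group, but same-numbered libraries correlated from -0.58 to 0.29 in their deviations from the group means over 18 pairs, so the numbers were not taken as pairs. With the replicate block 0 genes were called in the average in place of 1, and the smallest adjusted p of the 10 genes was 0.313 (Tek, average).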
